A study of Gallus gallus with 9 samples.

Results

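The genes AQP1, GEM, EMP1, CAV1, CAV2, SGCD and METTL7A, 7 in all, were examined in chicken preadipocytes, the precursors of fat cells. They were selected on their measured log2 values, for large falls when retinoic acid was added to an adipogenic cocktail, and their probe sets were taken as those whose single gene symbol in the platform annotation is one of the 7. This gave 12 of the 38535 probe sets on a 1-colour Affymetrix chicken array. The falls against the cocktail are therefore a description without a test.

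Preadipocytes from hen abdominal fat were grown to confluence and divided into 3 groups of 3 samples, numbered as biological replicates 1 to 3. The first group had the cocktail named DMIOA together with 10 uM retinoic acid, the second had DMIOA alone and the third was an untreated control. The labels do not expand DMIOA, and they name no strain, age or time of treatment. They do not tie a replicate number to a hen or a culture, so the spread behind each p-value may be technical. Titles of the DMIOA and control samples end in "(2)" and those with retinoic acid do not, and any difference in handling that this marks cannot be told apart from the treatment. Each sample was a bulk culture, in which fewer cells of a type and less RNA per cell cannot be told apart. All levels are log2 values as deposited after GCRMA, a background adjustment, normalization and summary of the probes of each probe set, and with 3 arrays a group their precision is limited.

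Caveolae are small flask-shaped pits of the plasma membrane that are abundant in fat cells, fibroblasts and endothelium. Their coat is built from caveolins and cavins: CAV1 encodes the caveolin without which caveolae do not form in most mammalian tissues, and CAV2 encodes its partner, which in mammalian cells needs caveolin-1 to reach the surface. The other 5 genes encode unrelated proteins of membranes. AQP1 is a water channel, EMP1 a tetraspan protein of the PMP22 family, SGCD the delta subunit of the sarcoglycan complex that is best known in muscle, GEM a small GTPase that in mammals binds calcium channel beta subunits at the plasma membrane, and METTL7A a methyltransferase-like protein of the endoplasmic reticulum and lipid droplets. Retinoic acid acts through nuclear receptors, and CYP26A1, which encodes the enzyme that breaks it down and is a classic target, read 12.23, 12.37 and 11.30 in retinoic acid replicates 1, 2 and 3, against 1.88, 2.04 and 1.87 with DMIOA and 1.80, 1.88 and 2.03 in control.

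A log2 value of 5 on at least 3 arrays was required of a probe set, which 8 of the 12 reached, at least 1 for each of the 7 genes. The same rule kept 12329 of the 37693 chicken probe sets, with 6945 named genes. Every kept probe set of the 7 genes was above 5 on all 6 DMIOA and control arrays, so each passed without its retinoic acid values. Replicate 3 of each group stood apart from replicates 1 and 2. Of 14 macrophage and leukocyte markers on the array, 11 reached 5 in retinoic acid replicate 3, 12 in DMIOA replicate 3 and 12 in control replicate 3, against 0 to 2 in the other 6 arrays. Across the chicken probe sets replicates 1 and 2 correlated at r = 0.998 with retinoic acid, 0.990 with DMIOA and 0.997 in control, and if the closest pair were not separate cultures the p-values would be too small.

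The caveolins come first. CAV1 (gene ID 373996) read 2.62, 3.10 and 3.93 in retinoic acid replicates 1, 2 and 3, against 6.52, 7.60 and 7.82 with DMIOA and 6.55, 6.55 and 8.0 in control. All 3 retinoic acid arrays were below 5 and all 6 others above it, with no overlap. CAV2 (gene ID 417772) read 9.32, 9.30 and 9.54 with retinoic acid, against 10.54, 10.56 and 10.74 with DMIOA and 10.52, 10.60 and 11.02 in control. It was lower on every retinoic acid array than on any other, yet stayed far above 5. The word silenced, used of these genes in the naming of the list, fits CAV1 by this threshold on all 3 arrays and AQP1, GEM and SGCD on 2 of 3, but not CAV2, EMP1 or METTL7A, which stayed above 5 on every array. For GEM and SGCD it fits only narrowly. Their main probe sets read 4.68 to 4.93 on those arrays, where the median of all probe sets on an array was at most 2.54.

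AQP1 (gene ID 420384) read 2.91, 2.83 and 6.54 with retinoic acid, against 10.60, 10.08 and 10.96 with DMIOA and 9.60, 9.87 and 11.14 in control. Retinoic acid replicate 3 stood 3.67 above the mean of replicates 1 and 2 of its group, which differed by 0.07, and it was the only retinoic acid array of this gene above 5. SGCD (gene ID 416251) behaved alike in its main probe set, with 4.69, 4.93 and 6.89 with retinoic acid, against 9.43, 9.50 and 10.02 with DMIOA and 10.00, 9.95 and 10.55 in control. This probe set carries the suffix _s_at, by which the array marks probes shared between transcripts. The other 3 SGCD probe sets stayed below 5 on every array, at means of 2.43 ± 0.39, 1.21 ± 0.04 and 1.46 ± 0.06 (SD, n = 3) with retinoic acid, against 3.46 ± 0.46, 2.01 ± 0.12 and 1.41 ± 0.06 with DMIOA and 4.0 ± 0.16, 2.73 ± 0.23 and 1.31 ± 0.08 in control.

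GEM (gene ID 404771) had 2 probe sets. The brighter read 4.68, 4.76 and 6.30 with retinoic acid, against 11.62, 11.23 and 10.66 with DMIOA and 11.22, 11.42 and 10.80 in control. Its other probe set had the same form, with 4.86, 4.55 and 5.68 with retinoic acid, against 11.12, 10.62 and 10.37 with DMIOA and 10.62, 10.76 and 10.07 in control. Both placed retinoic acid replicates 1 and 2 just below 5 and replicate 3 above it, and neither overlapped with the other groups.

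EMP1 (gene ID 417964) read 7.24, 7.05 and 7.64 with retinoic acid, against 11.90, 10.68 and 11.20 with DMIOA and 12.37, 12.44 and 12.34 in control. It was the one gene of the 7 whose 3 groups were all apart with DMIOA in the middle. Another EMP1 probe set was below 5 throughout, between 3.14 and 3.72 on the 9 arrays. METTL7A (gene ID 426871) read 6.12, 6.79 and 5.10 with retinoic acid, against 10.74, 10.85 and 10.39 with DMIOA and 10.28, 10.22 and 10.17 in control. Its retinoic acid replicate 3 was the lowest of the 3, where that of each of the other 6 genes was the highest.

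**Figure D1:**
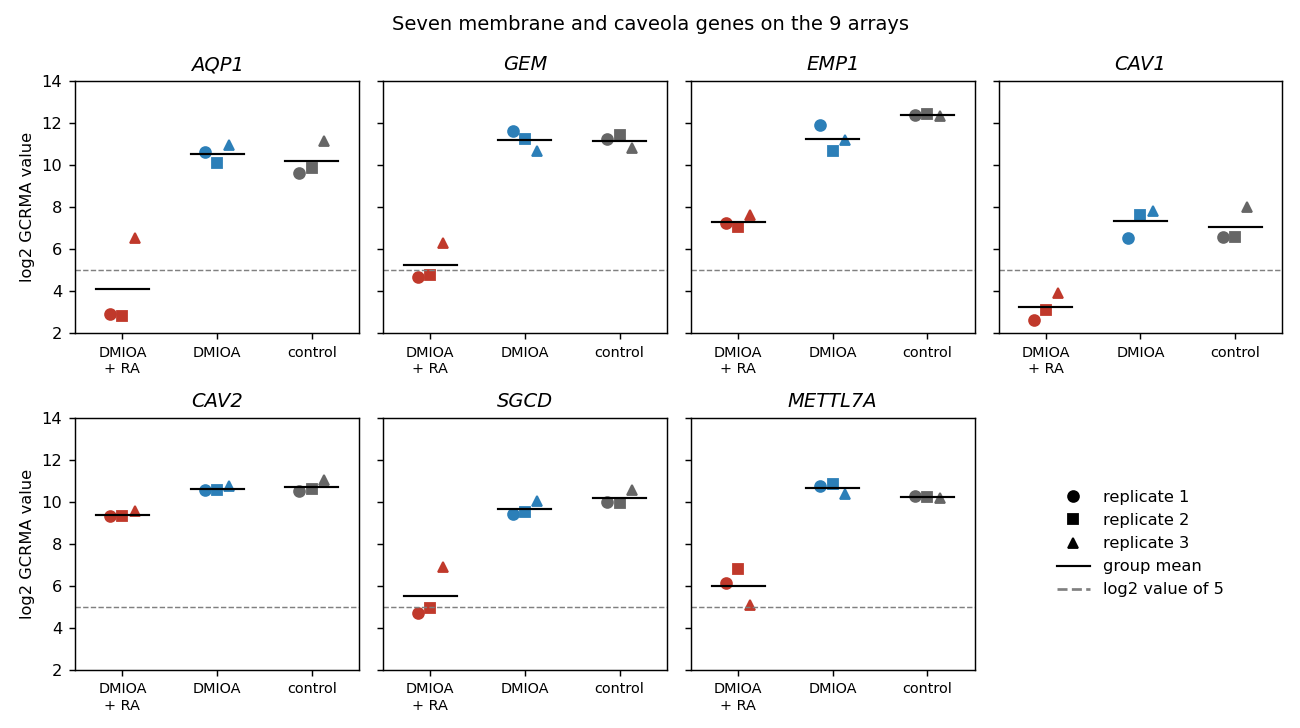
Log2 GCRMA values (vertical axis) of the probe set that stands for each of the 7 genes in the 3 groups, 1 symbol per array with the shape giving the replicate number, a bar for the group mean and a dashed line at 5. No retinoic acid value overlaps with another group, CAV1 lies below 5 on all 3 retinoic acid arrays, and CAV2, at 9.32, 9.30 and 9.54, stays high.

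In the comparison that chose the list, the fitted log2 differences, retinoic acid plus DMIOA minus DMIOA, were -6.45 ± 0.95 (SE) for AQP1 and -5.92 ± 0.45 for GEM (-5.68 ± 0.34 in its other probe set). They were -4.66 ± 0.38 for METTL7A, -4.15 ± 0.54 for SGCD, -4.10 ± 0.53 for CAV1, -3.95 ± 0.29 for EMP1 and -1.22 ± 0.16 for CAV2. Only EMP1, METTL7A and CAV2 had all their retinoic acid values above 5, and their folds can be read as measured, at 15.4-fold, 25.2-fold and 2.34-fold lower. Where values lie below the threshold of 5 the size of a fall is taken as uncertain. Such values of CAV1 and AQP1, at 2.62 to 3.93, lay nearer the array median of at most 2.54 than those of GEM and SGCD. With 5 in place of each value below it CAV1 changed by -2.31 rather than -4.10. The median of the 7 was -4.15, against 0.04 over all 12329 probe sets, of which 9.16% were lower with no overlap between the groups, 1.77% were called lower by limma at an adjusted p under 0.05 and 0.3% fell by at least 3. An unadjusted p under 0.05 was found for 16.2%. By size of fall AQP1 ranked at place 2 and the GEM probe sets at places 3 and 4, while CAV2 ranked at place 371. No numeric threshold was given for the list, and CAV2, whose fall 3.01% of all kept probe sets matched or exceeded, marks how far down it reaches.

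The falls differed by replicate number. In replicates 1, 2 and 3 the difference from DMIOA was -7.69, -7.25 and -4.42 for AQP1, -6.94, -6.46 and -4.36 for GEM and -4.73, -4.57 and -3.13 for SGCD, smallest in replicate 3 each time. For METTL7A it was -4.62, -4.06 and -5.29, largest in replicate 3. With 5 in place of values below it the differences were -5.60, -5.08 and -4.42 for AQP1, -6.62, -6.23 and -4.36 for GEM and -4.43, -4.50 and -3.13 for SGCD, still smallest in replicate 3. For CAV1 the order depended on this: it had -3.90, -4.50 and -3.89 as deposited and -1.52, -2.60 and -2.82 at the floor. CAV2, with no value below 5, had -1.22, -1.26 and -1.20. Markers of several cell types also set retinoic acid replicate 3 apart. The summed log2 level of a marker list is the log2 of the sum of its unlogged values, and its brightest genes largely set it. For the leukocyte markers it was 12.07 in retinoic acid replicate 3, against 7.26 and 7.31 in replicates 1 and 2. The other groups had this shift too, with 12.66 in DMIOA replicate 3, against 6.83 and 7.04, and 13.44 in control replicate 3, against 6.79 and 7.32. The values that follow are from the retinoic acid arrays. For 10 adipocyte markers it was 13.48, against 11.98 and 11.94. FABP4, the fatty acid binding protein of fat cells, read 12.28, against 6.41 and 6.26. Endothelial markers went both ways. The junction gene CLDN5 read 7.79, against 4.38 and 4.18, and CDH5 read 10.82, against 7.89 and 7.82. ERG was lower in replicate 3, at 8.02 against 8.87 and 8.92, as was LYVE1, at 7.39 against 8.38 and 8.41. The shifts of CDH5 and LYVE1 were present in the other groups too. In replicate 3 CDH5 read 10.93 with DMIOA, against 8.98 and 8.64, and 10.92 in control, against 7.82 and 8.22. LYVE1 read 7.82 with DMIOA, against 8.58 and 8.42, and 8.40 in control, against 8.66 and 8.88. FABP4, CLDN5 and ERG did not show their shift in both other groups. The part of these markers in the differences was not tested. With replicates 1 and 2 of every group alone, a restriction chosen after seeing the data, the differences were -7.47 for AQP1, -6.70 for GEM and -4.65 for SGCD. Every retinoic acid value behind these was below 5, so their sizes are uncertain. At the floor the differences of AQP1 in those replicates were -5.60 and -5.08, as given above.

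**Figure D2:**
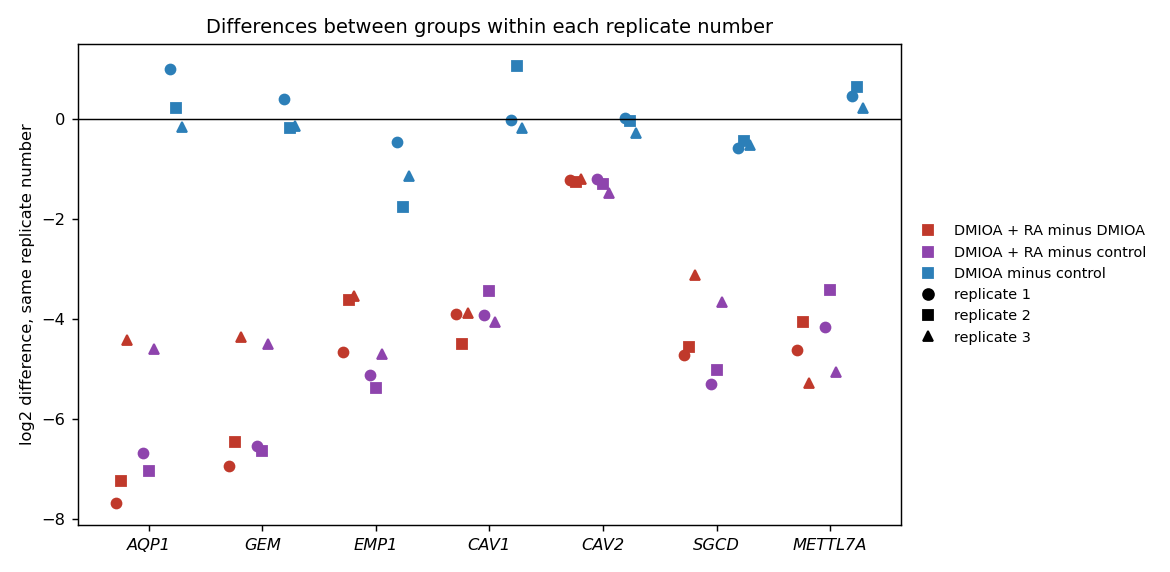
Log2 differences (vertical axis) between arrays of the same replicate number for each of the 7 genes, with 1 colour per pair of groups and 1 shape per replicate number. The differences of both retinoic acid comparisons lie below 0 in every replicate, and AQP1, GEM and SGCD fall least in replicate 3. Those of DMIOA minus control lie on both sides of 0 except for 3 genes. EMP1 (-0.47, -1.77 and -1.14) and SGCD (-0.58, -0.45 and -0.53) lie below 0 and METTL7A (0.46, 0.63 and 0.22) above it.

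The untreated control was not used to choose the genes, and their levels with retinoic acid are set against it here. All 7 were below it. In this comparison EMP1 changed by -5.07 ± 0.29 on the log2 scale and was 33.6-fold lower (limma, Benjamini-Hochberg adjusted p = 8.72e-05), METTL7A by -4.22 ± 0.38 and was 18.6-fold lower (limma adjusted p = 0.000795), and CAV2 by -1.32 ± 0.16 and was 2.5-fold lower (limma adjusted p = 0.00273). With 5 in place of each value below it, GEM was at least 52.4-fold lower, AQP1 at least 25.8-fold, SGCD at least 23.2-fold and CAV1 at least 4.09-fold. Their limma adjusted p in the fit on the values as deposited was 0.000389 for GEM, 0.00693 for AQP1, 0.00241 for SGCD and 0.0043 for CAV1. In the fit with values below 5 set to 5 it was 0.000192 for GEM, 0.00192 for AQP1, 0.00163 for SGCD and 0.0243 for CAV1. Thus 7 of 7 genes were called lower, where limma called 6.42% of all 12329 probe sets lower and 13.2% in either direction (6.74% higher). The groups did not overlap for any of the 7, as for 15.5% of all probe sets on the lower side. These tests share the retinoic acid arrays with the comparison that chose the list and are not independent of it. The median difference of DMIOA from control over the 7 genes was 0.02. A large fall from DMIOA therefore largely fixes a fall from control, and the count of 7 is a description.

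Set against the control, DMIOA alone gave 0 calls among the 7 genes by limma, also with the replicate number as a block, and 1 gene had an unadjusted p under 0.05. Over all probe sets 0.146% were called there, or 1.29% with the block, and 11.6% had an unadjusted p under 0.05. That gene was EMP1, which had 11.26 ± 0.61 with DMIOA against 12.38 ± 0.05 in control (SD, n = 3), a log2 difference of -1.13 with a 95% interval of -1.81 to -0.45 before adjustment (limma adjusted p = 0.214). Its groups did not overlap, as for 7.34% of all probe sets, and those of METTL7A did not overlap in the other direction, as for 8.21%. The intervals of the others included 0. The narrowest was that of CAV2, at -0.47 to 0.27, and the widest that of AQP1, at -1.86 to 2.55, so that changes of up to several-fold in AQP1 were not detectable with 3 arrays a group. GEM lay at -1.02 to 1.07, CAV1 at -0.94 to 1.51, SGCD at -1.76 to 0.72 and METTL7A at -0.43 to 1.30. The DMIOA arrays also belong to the comparison that chose the list, so these values are not independent of it either.

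Across the 9 arrays the genes were correlated in pairs at r = 0.860 to 0.985, which the list's own rule largely fixes since all fall in the same 3 arrays. After each group's mean was removed, AQP1 and SGCD still varied together (r = 0.973 over 9 arrays), as did CAV1 and CAV2 (0.873). METTL7A varied against all the others, at -0.884 with AQP1 to -0.450 with EMP1. For most of the genes these deviations rest mainly on replicate 3. Those of EMP1 rest mainly on DMIOA replicates 1 and 2, which differed by 1.22, and those of CAV1 rest in part on the same arrays (1.09).

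CAV1 and CAV2 are next to each other on the chromosome in the RefSeq gene table (assembly GRCg7b), with MET and CAPZA2 on the side of CAV1 and TES on that of CAV2. The coordinates are not used, because no genome build is tied to the array. TES, which encodes the focal adhesion protein testin, read 13.03, 12.96 and 12.92 with retinoic acid, against 12.52, 12.24 and 12.42 with DMIOA and 12.18, 12.30 and 12.56 in control. Its difference from DMIOA was 0.58 ± 0.14, opposite in sign to that of the caveolins (limma adjusted p = 0.0618, 0.0406 with the replicate block). MET, the receptor of hepatocyte growth factor, differed by 0.42 ± 0.35 and CAPZA2, an actin capping protein, by 0.09 ± 0.19 (limma adjusted p = 0.641 and 0.888). Over the 2 nearest protein-coding genes on each side of the 7 genes, a look chosen after the levels were seen, 12 of 24 neighbours were measured and limma called 0 of them (1 with the block, 2 at an unadjusted p under 0.05), where 3.89% of all probe sets were called (10.8% with the block). Their differences ran from -0.87 for SCN8A, beside METTL7A, to 0.58 for TES.

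**Figure D3:**
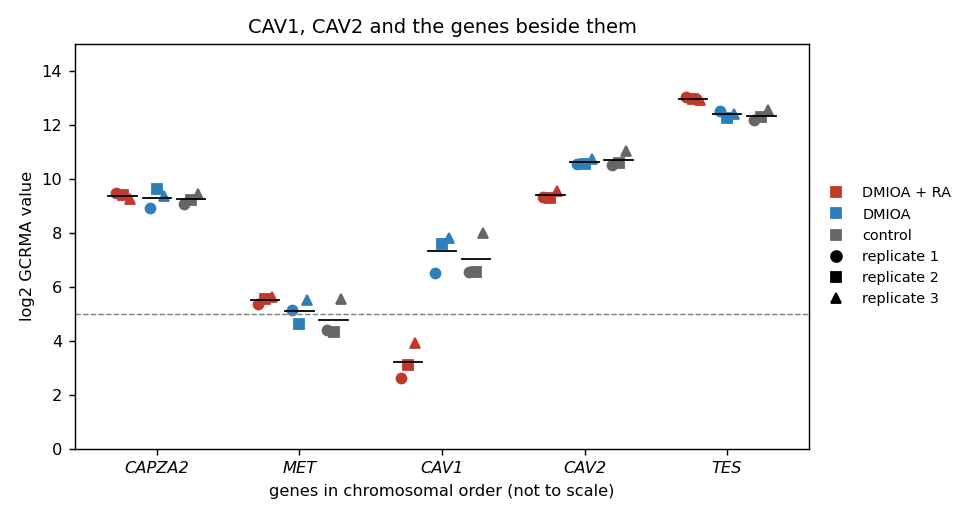
Log2 GCRMA values (vertical axis) of CAV1, CAV2 and 3 genes beside them in chromosomal order, which is not to scale, with 1 colour per group, 1 shape per replicate number, a bar for the group mean and a dashed line at 5. CAV1 and CAV2 are lowest with retinoic acid, where TES, at 13.03, 12.96 and 12.92, is at its highest.

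Relatives of the 7 genes were listed by family or complex, 65 of which were on the array with a named probe set and 36 of which were measured. Against DMIOA, 2 of the 36 were lower and 1 was higher by limma, or 6 and 1 with the replicate block, where 1.77% of all probe sets were lower and 2.12% higher, or 5.27% and 5.56% with the block. Their median difference was -0.12, against 0.04 over all probe sets. Against control 7 of the 36 were lower and 0 higher (11 and 2 with the block), where 6.42% of all probe sets were lower and 6.74% higher (13% and 15.8% with the block). The lower genes include TMEM47, which passed the filter only through its control arrays. An unadjusted p under 0.05 was found for 17 of the 36 and for 30.4% of all probe sets.

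The other measured genes listed with the caveola coat lay between -0.91 and 0.20 from their DMIOA level on the log2 scale. The cavin genes among them, PTRF and PRKCDBP, were both lower on average. The rest, EHD3, EHD4, PACSIN2, PACSIN3, FLOT2 and ROR1, do not encode cavins or caveolins. Of these 8 genes limma called 0 against DMIOA, or 1 lower with the replicate block. Their median difference was 0.01, which mostly reflects the genes other than cavins. Against control limma called 0, or 3 lower with the block, where 13% of all probe sets were lower with the block. PTRF, which encodes cavin-1, read 5.24, 5.00 and 5.58 with retinoic acid, against 5.54, 6.89 and 6.13 with DMIOA and 6.09, 6.51 and 6.68 in control, a difference from DMIOA of -0.91 ± 0.34 (limma adjusted p = 0.223) and from control of -1.16 ± 0.34 (0.0607, or 0.0301 with the block). PRKCDBP, which encodes cavin-3, had 12.84 ± 0.05 with retinoic acid against 13.28 ± 0.11 with DMIOA (SD, n = 3), a difference of -0.44 ± 0.11 (limma adjusted p = 0.0689, 0.0385 with the block). PACSIN2, which shapes the caveolar neck, had -0.42 ± 0.19 and EHD3, a membrane ATPase, 0.02 ± 0.11. The muscle members CAV3 and MURC, which encodes cavin-4, did not exceed 1.80 and 2.29 on any array.

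Of 8 proteins that are known to bind caveolin or lie in caveolae, FYN was called against DMIOA. FYN, a Src-family kinase, had 10.41 ± 0.05 with retinoic acid against 10.85 ± 0.05 with DMIOA, a difference of -0.44 ± 0.10 (limma adjusted p = 0.0496), and that call was lost without any 1 of the 9 arrays (adjusted p 0.0561 to 0.209). A second, dimmer FYN probe set had -0.54 ± 0.18 and was called only with the block (limma adjusted p = 0.182, 0.0152 with the block). Against control FYN changed by -0.79 ± 0.10 (limma adjusted p = 0.00295). IGF1R, the insulin-like growth factor receptor gene, changed by -0.72 ± 0.17 against control (limma adjusted p = 0.0323), a call that was lost without control replicate 1 or 2 or any 1 retinoic acid array (adjusted p 0.0666 to 0.112). RHOA, TRPC1, DLC1 and the insulin receptor gene INSR differed from DMIOA by -0.07, -0.22, 0.21 and 0.02 and were not called. A second, dimmer DLC1 probe set went the other way, by -0.64 ± 0.45 (limma adjusted p = 0.564, 0.0385 with the block). Its means were 3.99 with retinoic acid and 4.63 with DMIOA, both below 5.

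Among the aquaporins AQP1 was alone in being measured. The other 9 on the array did not pass the filter, and the highest value of any of them was 5.04, for AQP9.

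The other measured sarcoglycan subunits were not called. SGCB and SGCE, its beta and epsilon subunits, had 11.32 ± 0.11 and 11.29 ± 0.02 with retinoic acid, against 11.07 ± 0.10 and 11.42 ± 0.13 with DMIOA, differences of 0.25 ± 0.11 and -0.13 ± 0.12 (limma adjusted p = 0.333 and 0.697). A second, dimmer SGCE probe set had the opposite sign, at 0.28 ± 0.16 (limma adjusted p = 0.446). Dystrophin and its partner dystrobrevin lay lower. DMD, the dystrophin gene, read 7.90, 7.90 and 8.47 with retinoic acid, against 9.12, 8.94 and 8.87 with DMIOA and 9.73, 9.76 and 9.33 in control, and DTNA, the alpha-dystrobrevin gene, read 5.35, 5.83 and 5.59, against 6.58, 6.47 and 6.47 and 7.71, 7.17 and 6.87. Neither overlapped between the groups, and both were intermediate with DMIOA. Against DMIOA their adjusted p by limma was 0.0518 and 0.0684 (0.0479 and 0.0490 with the block), and against control DMD fell 2.85-fold and DTNA 3.16-fold (limma adjusted p = 0.00343 and 0.00377). LAMA2, the laminin chain that the complex binds through dystroglycan, had 4.99 ± 0.73 with retinoic acid against 7.38 ± 1.33 with DMIOA (adjusted p = 0.110), and SNTB1, a syntrophin gene, 6.51 ± 2.06 against 8.28 ± 1.10 (0.469). A second, dimmer DMD probe set was called lower against DMIOA, at 6.37 ± 0.24 with retinoic acid and 7.48 ± 0.25 with DMIOA (log2 -1.11 ± 0.18, limma adjusted p = 0.017). By the brightest probe set of each gene, 0 of 7 measured genes of this list were called against DMIOA (2 lower with the block) and 2 were lower against control.

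The PMP22 family, to which EMP1 belongs, held the largest called fall among the relatives. PMP22, the peripheral myelin protein gene, read 9.48, 9.57 and 9.83 with retinoic acid, against 11.43, 11.23 and 11.27 with DMIOA and 11.53, 11.60 and 11.44 in control. It fell 3.21-fold against DMIOA (log2 -1.68 ± 0.13, limma adjusted p = 0.000515) and a second probe set had -2.14 ± 0.19. That call held without any 1 array (adjusted p up to 0.00555). EMP2 changed by -0.70 ± 0.18 against DMIOA (limma adjusted p = 0.0863, 0.0381 with the block) and by -1.06 ± 0.18 against control (0.0102, or 0.0535 without retinoic acid replicate 2). TMEM47, a claudin-like tetraspan gene, read 3.47, 3.69 and 3.02 with retinoic acid, against 4.53, 3.51 and 4.80 with DMIOA and 5.30, 5.81 and 6.19 in control, at least 1.70-fold lower than in control (limma adjusted p = 0.00701). TMEM47 was above 5 on its control arrays only and passed the filter through them, so its fall from control was partly fixed by the filter. Leaving it aside, PMP22 and EMP2 were called lower against control, where 6.42% of all probe sets were, the call of EMP2 resting on retinoic acid replicate 2. Of the family 1 gene, PMP22, was called lower against DMIOA, where 1.77% of all probe sets were.

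GEM had few measured partners. RRAD, another GTPase of its family, and the calcium channel beta subunit genes CACNB2 and CACNB4 did not exceed 3.76, 2.37 and 1.73 on any array. EZR, which encodes ezrin, a membrane-to-actin linker that binds GEM, rose against DMIOA: it read 8.65, 8.74 and 8.99 with retinoic acid, against 7.48, 7.41 and 7.60 with DMIOA and 7.96, 8.36 and 8.48 in control (log2 1.30 ± 0.17, limma adjusted p = 0.00672). For METTL7A, 7 genes of lipid droplet membrane proteins were measured and limma called 0 against DMIOA, with or without the block. Of these AUP1 had -0.48 ± 0.17, RAB18 0.17 ± 0.16, VCP 0.04 ± 0.14 and RAB8A -0.01 ± 0.23. A second, dimmer RAB8A probe set had 0.28 ± 0.12 (limma adjusted p = 0.279).

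**Figure D4:**
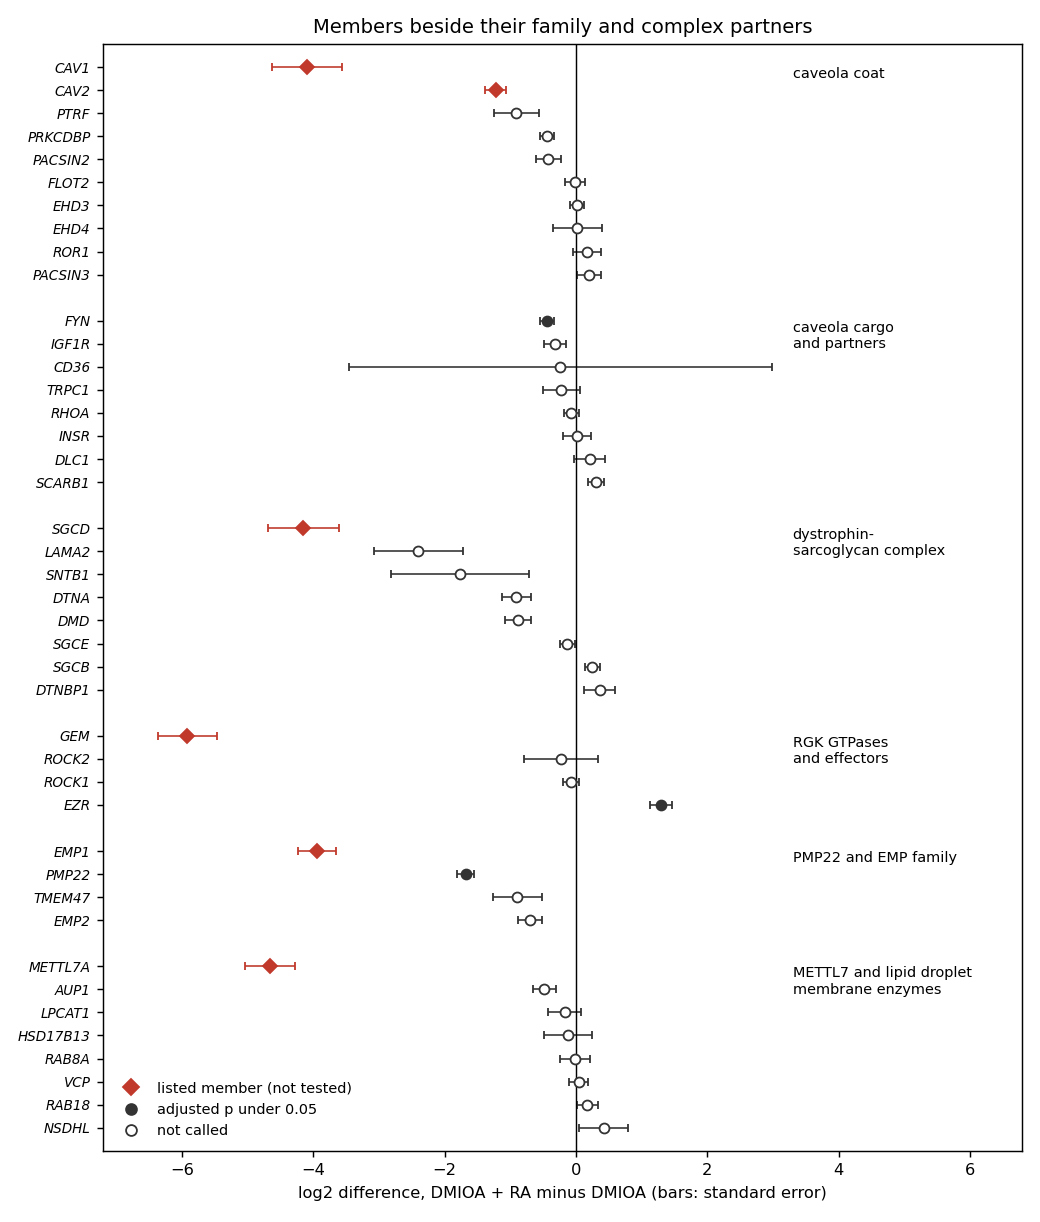
Log2 differences, DMIOA plus retinoic acid minus DMIOA, with standard errors (horizontal axis), for the listed genes (diamonds, not tested) and the measured relatives of each (circles, filled where the adjusted p is under 0.05). PMP22 (-1.68) and FYN (-0.44) are the called falls and EZR (1.30) the called rise. No relative falls as far as a diamond of its own group, which the choice of the diamonds for large falls in this comparison largely fixes.

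Other genes with the same profile over the 9 arrays were sought by Pearson correlation with the mean standardised profile of the 7. Of 6938 other named genes 121 had r over 0.9 and 32 over 0.95, all of them lower with retinoic acid than with DMIOA. The nearest were C12orf75 (r = 0.992), PMP22 (0.987), S100A6, TRPV6 and SYNGR2 (0.985 each), CD44 (0.984), ANXA1 (0.982), MYH15 and COL8A1 (0.981 each) and PHPT1L (0.980). CD44, the hyaluronan receptor, had 4.66 ± 0.29 with retinoic acid against 7.86 ± 0.27 with DMIOA and 8.66 ± 0.26 in control, at least 7.24-fold lower than with DMIOA. TRPV6, a calcium channel, had 6.03 ± 0.59 against 8.42 ± 0.33 and 8.53 ± 0.25, and ANXA1, the membrane-binding annexin A1, had 11.37 ± 0.36 against 12.75 ± 0.17 and 13.01 ± 0.19. The size of the fall varied widely within these genes, from -3.52 for MYH15 to -0.65 for SYNGR2. Because the measure of likeness uses the arrays by which the genes were chosen, these are descriptions, without a test.

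Taken singly, the 7 genes had different nearest profiles. AQP1 was closest to TRPV6 (r = 0.987 over 9 arrays), GEM to C12orf75 (0.996), EMP1 to UBE2R2 (0.993), CAV1 to ANXA1 (0.971), CAV2 to S100A6 and ANXA1 (0.983 each), and SGCD to ANXA1 (0.994) and the collagen gene COL8A1 (0.993). EMP1 was also close to CSPG4 (0.990), a surface proteoglycan gene that had 3.05 ± 0.22 with retinoic acid against 6.16 ± 0.54 with DMIOA and 7.32 ± 0.02 in control, with DMIOA in the middle as for EMP1. METTL7A was closest to the troponin gene TNNC1 (0.983) and to C1QTNF3 (0.980), a secreted adiponectin relative whose levels were 3.80 ± 0.74, 11.50 ± 0.60 and 9.78 ± 0.40 in the same order of groups.

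**Figure D5:**
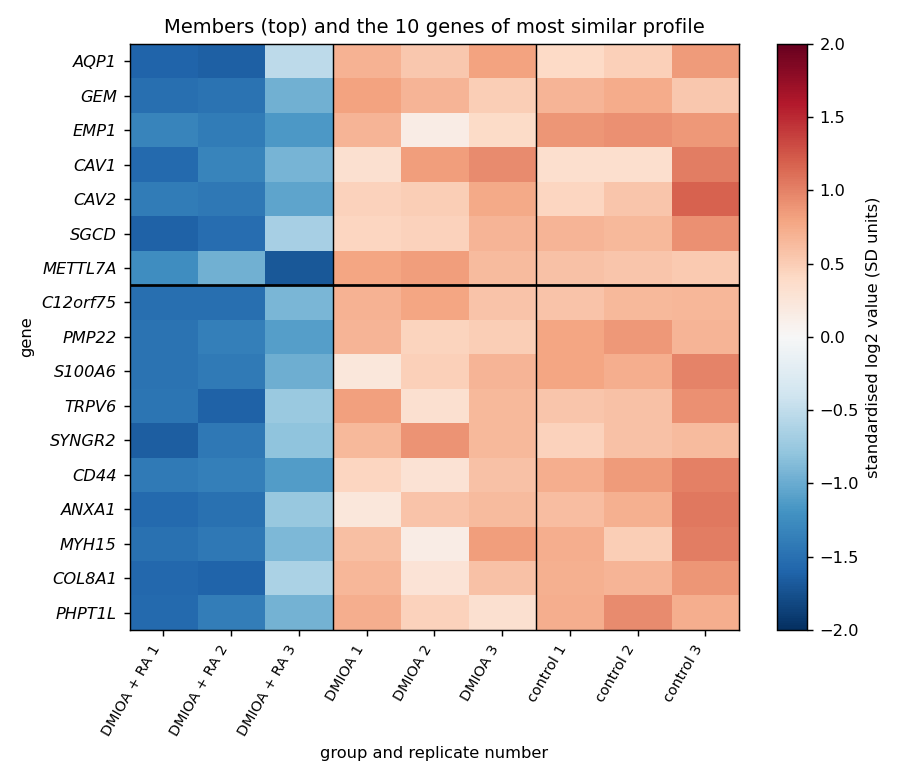
Standardised log2 values (colour, in SD units over the 9 arrays) of the 7 genes, above the line, and of the 10 genes with the most similar mean profile, below it, with arrays in columns by group and replicate number. All rows are low in the 3 retinoic acid arrays, replicate 3 being the least low of these for AQP1 (6.54) and SGCD (6.89) and the lowest for METTL7A (5.10).

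AQP1, CAV1 and SGCD are also made by endothelial or muscle cells, and AQP1 by red cells in mammals, so markers of these cells are given beside them. Erythroid markers did not reach 5 on any array (0 of 7). Of 16 endothelial markers, 3 to 6 reached 5 with retinoic acid, 4 to 6 with DMIOA and 5 to 6 in control, with summed log2 levels of 10.19 to 11.37, 10.79 to 11.77 and 11.12 to 11.99. PECAM1 read 3.89, 3.83 and 5.31 with retinoic acid, against 5.53, 4.99 and 6.06 with DMIOA and 6.82, 7.11 and 7.42 in control, while CDH5 read 7.89, 7.82 and 10.82, against 8.98, 8.64 and 10.93 and 7.82, 8.22 and 10.92. ERG, an endothelial transcription factor gene, read 8.87, 8.92 and 8.02, against 10.74, 9.68 and 9.84 and 10.16, 10.37 and 10.24. CLDN5 read 4.38, 4.18 and 7.79, against 8.07, 6.88 and 7.88 and 8.05, 7.91 and 8.17. ERG did not overlap between retinoic acid and DMIOA (-1.48 ± 0.33, limma adjusted p = 0.0516, 0.026 with the block), and CLDN5 did so in replicate 3 (-2.16 ± 0.88, limma adjusted p = 0.273). The defining endothelial receptors KDR and TEK and the clotting factor gene VWF did not exceed 2.19, 2.35 and 3.32.

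Of 11 smooth muscle and pericyte markers 6 or 7 reached 5 on each array, with summed log2 levels of 11.82 to 12.29 with retinoic acid, 12.40 to 12.51 with DMIOA and 12.61 to 12.87 in control. Among them ACTA2, the smooth muscle actin gene, was called lower against DMIOA (-1.71 ± 0.30, limma adjusted p = 0.0208), as was CSPG4 (-3.11 ± 0.25, limma adjusted p = 0.000682). TAGLN and PDGFRB differed from DMIOA by -0.41 and -0.90, and MYOCD, ABCC9 and MYH11 by 0.81, 0.81 and 0.21. Without the block limma called none of these. Of 10 skeletal muscle markers 1 reached 5 with retinoic acid, 1 or 2 with DMIOA and 3 in control, with summed log2 levels of 6.36 to 6.99, 7.19 to 8.0 and 8.99 to 9.34, which do not overlap. MYH1E, a skeletal myosin gene, read 3.42, 4.24 and 4.08 with retinoic acid, against 4.83, 5.86 and 6.43 with DMIOA and 7.02, 8.09 and 9.03 in control (limma adjusted p = 0.149 against DMIOA, 0.0101 with the block). Apart from it only TNNT3 and MYOM2 reached 5 on any array. TNNT3 read 6.44, 6.27 and 5.16 with retinoic acid, against 6.20, 6.07 and 5.63 in control. From DMIOA they differed by -0.58 ± 0.47 and -0.12 ± 0.68, and MYOM2 was above 5 in control only. Of 13 mesenchymal markers 10 or 11 reached 5 on each array, at summed log2 levels of 16.60 to 16.82 with retinoic acid, 16.81 to 16.91 with DMIOA and 16.97 to 17.0 in control. PDGFRA and EBF2, which mark preadipocytes in mammals, were below 5 on all 9 arrays, and POSTN, the periostin gene, was called lower against DMIOA (-2.11 ± 0.11, limma adjusted p = 7.91e-05). Brighter markers of this list changed less. FN1, DCN and COL3A1 differed from DMIOA by 0, 0.03 and 0.02, and COL1A1, COL1A2 and VIM by -0.22, -0.18 and -0.32. Limma called none of them. The adipocyte sum was 11.94 to 13.48 with retinoic acid, 12.58 to 13.96 with DMIOA and 11.92 to 12.07 in control. Of 5 mesothelial and epithelial markers 2 reached 5 on each array, KRT7 and CLDN1. KRT7 differed from DMIOA by -0.48 ± 0.45 (limma adjusted p = 0.687). CLDN1 was higher, at 10.97 ± 0.51 with retinoic acid against 8.19 ± 0.92 with DMIOA (limma adjusted p = 0.134, 0.0471 with the block). PECAM1, ERG, CLDN5, ACTA2, CSPG4, POSTN and the smooth and skeletal muscle sums were lower with retinoic acid on average, as the 7 genes were. Other markers of the same lists went the other way or, like FN1, DCN and COL3A1, hardly differed. The endothelial marker FLT4 differed from DMIOA by 1.22 ± 0.83 (limma adjusted p = 0.544), and MYOCD, ABCC9 and MYH11 were also higher on average. The part of these markers in the falls was not tested.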

How the data were processed

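The submitters' processing notes name GCRMA for the deposited log2 values, 1 per probe set, without a version or settings. That the scale is log2 follows from the range of the values. Per the labels' protocols, each array received 15 ug of biotin-labelled aRNA made from TriZol-extracted RNA. Between 30.9% and 31.3% of chicken probe sets reached a log2 value of 5 on each array. Scanner files were not used here.

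A linear model with a mean for each of the 3 groups was fitted to all 9 arrays (lmFit and eBayes of limma 3.58.1, under R 4.3.3, with 6 residual degrees of freedom, 4 with the replicate number as a block), with Benjamini-Hochberg adjustment over the 12329 kept probe sets and calls under 0.05. For each gene the probe set with the highest mean was used, and the other probe sets of the 7 genes are given beside it. Names came from the platform annotation, in which 27178 probe sets had 1 symbol, and the gene IDs of all 7 genes were found in the RefSeq gene table. The replicate numbers were taken to pair the samples in the block fit and in the differences by replicate number, but not in the main fit. Deviations of same-numbered samples from their group means correlated at 0.375 to 0.857. These values cannot show that the samples other than replicate 3 are paired. Replicate 3 stood apart in every group, so the others would tend to deviate alike whichever numbers they had. Deviations of differently numbered samples were not compared between groups. Genes named are all probe sets of the 7 genes, relatives that were called with up to 4 others of each list by level, and the 10 genes (3 for a single gene) of most similar profile; a few relatives and markers outside this rule were named after their values were seen. The 7 genes, the lists and the tests were chosen with earlier results of these data known. The fit was also run on simulated data, independent normal values around 1 mean per probe set with known changes added to the retinoic acid group. These lack the shift of replicate 3 and the shared deviations of the real arrays, so they do not check the p-values given here.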

Additional observations from a re-analysis of the deposited data

How the results depend on the processing

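The 7 genes were called lower in DMIOA plus retinoic acid than in control under each of 20 alternatives, with limma adjusted p up to 0.0327 (AQP1, leaving out 1 array). All of these alternatives use retinoic acid arrays by which the list was chosen. They show how the calls depend on the processing and are not independent of that choice. Between DMIOA and control 0 were called (1 at an unadjusted p under 0.05) except with array weights, where 1 was, EMP1 (-1.24, adjusted p = 0.0492). GEM, at 0.02 there, took the values 0 with cyclic loess, -0.18 with array weights and -0.20 to 0.28 without 1 array, and CAV2, at -0.10, took 0.01 with array weights and -0.20 to 0.05 without 1 array. In the comparison with DMIOA all 7 differences kept their sign, which the choice of the genes for large falls there largely fixes. That of CAV1 went from -4.10 to -2.31 with values below 5 set to 5.

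The relatives called against DMIOA, 3 in all, were 5 with cyclic loess, 5 with an intensity trend and robust prior, 8 with array weights, 7 with the replicate block, 6 with replicates 1 and 2 only (chosen after seeing the data) and 2 to 4 without 1 array. The cause was not tested. Over all probe sets, 479 were called between retinoic acid plus DMIOA and DMIOA, 18 between DMIOA and control and 1623 between retinoic acid plus DMIOA and control. These were 1336, 159 and 3546 with the replicate block, 1232, 269 and 8317 with array weights, and 1517, 172 and 3620 with replicates 1 and 2 only. Without 1 array they were 146 to 602, 0 to 39 and 546 to 1997. With the 2 compared groups alone, and so fewer samples, the first was 216 and the second 0 (1137 at an unadjusted p under 0.05). The second was 11 with the trend and robust prior and 28 with values below 5 set to 5. Of the 1623, 831 were higher and 792 lower, and with cyclic loess 612 were higher and 935 lower. The block changed no call of the 7 genes. Values below 5 limit how far the falls of AQP1, GEM, SGCD and CAV1 can be measured.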
